A study of Mus musculus with 6 samples.

Results

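The genes of the mitochondrial respiratory chain were compared between young and old vascular smooth muscle cells (VSMCs), which make up the muscular layer of the artery wall and set its tone by contracting. They were chosen by name, as every gene whose single symbol in the array's annotation begins with Nduf, Uqcr, Cox4 to Cox8 or Atp5, together with Sdha, Sdhb, Sdhc, Sdhd and Cyc1. This gave 90 of the 22180 genes measured. Of these, 32 encode subunits of complex I, 4 of complex II, 8 of complex III, 18 of complex IV and 17 of complex V. A further 9 encode factors that help to build complexes, and 2, Atp5c1-ps and Uqcrh-ps1, are named as pseudogenes. All samples were primary aortic VSMCs of C57BL/6 mice, labelled male and untreated, with 3 samples at an age of 12 weeks (young) and 3 at 58 to 78 weeks (old), and no genetic change is given for either group. The cells were bought from 2 companies that differ in culture medium and were used within 3 passages. The sources used here do not tie samples to a company, and its part in the differences was not tested. Whether each sample stands for its own mouse is not in the labels either, and the p-values rest on a spread between samples that may be only technical.

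The respiratory chain sits in the inner mitochondrial membrane. Complex I takes electrons from NADH and complex II from succinate, ubiquinone carries them to complex III, and cytochrome c carries them on to complex IV, where they reduce oxygen. Complexes I, III and IV pump protons across the membrane, and complex V, the ATP synthase, lets protons flow back and makes ATP. Most subunits are encoded in the nucleus, but a set of hydrophobic ones, absent from complex II, is encoded in mitochondrial DNA, so the levels of both sets matter for the complexes. In cultured smooth muscle the chain supplies part of the ATP used for contraction and growth, with glycolysis supplying much of the rest.

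Many nuclear genes of the chain are known targets of NRF1, of ETS factors such as GABP and of the estrogen-related receptors, and their promoters were therefore searched. The RefSeq promoter table of GRCm38.p6 lists 250 bases before to 50 bases after a gene's start, and it held 77 promoters of 72 of the 90 genes. The NRF1 core GCATGCGC, on either strand, was found in 12 of the 77 promoters (15.6%), against 2.71% of all 32851 promoters and 3.51% of those of protein-coding genes. The ETS motif CCGGAAGT was in 5 (6.49%), against 3.89% of all promoters and 5.15% of those of protein-coding genes, which is near its share. The estrogen-related receptor motif TCAAGGTCA was in 2 (2.60%), against 0.423% and 0.334%. Both strands were searched, each promoter was counted once, and no match of one motif overlapped a match of another. The promoters below belong to Uqcr11, Ndufa8 and Atp5d, which have the lowest unadjusted p of their complexes in the comparison with age, and to Sdhb, which carries the same NRF1 core as the first pair without a higher level in old cells. Capitals mark the motifs, and each sequence is written 5′ to 3′ on the strand of its gene.
Uqcr11, chr10:80406772-80407071, minus strand: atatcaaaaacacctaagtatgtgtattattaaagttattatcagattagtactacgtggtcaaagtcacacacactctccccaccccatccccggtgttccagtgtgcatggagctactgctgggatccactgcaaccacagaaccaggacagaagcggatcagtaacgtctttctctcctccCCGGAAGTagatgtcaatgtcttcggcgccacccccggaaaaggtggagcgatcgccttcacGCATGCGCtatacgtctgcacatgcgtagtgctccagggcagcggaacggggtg
Ndufa8, chr2:36049289-36049588, minus strand: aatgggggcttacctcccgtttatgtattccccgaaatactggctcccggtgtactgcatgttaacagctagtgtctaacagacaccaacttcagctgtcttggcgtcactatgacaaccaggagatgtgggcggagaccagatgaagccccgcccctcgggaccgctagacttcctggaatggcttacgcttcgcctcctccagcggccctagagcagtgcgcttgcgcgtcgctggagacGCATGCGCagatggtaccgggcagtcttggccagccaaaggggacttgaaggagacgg
Sdhb, chr4:140961021-140961320, plus strand: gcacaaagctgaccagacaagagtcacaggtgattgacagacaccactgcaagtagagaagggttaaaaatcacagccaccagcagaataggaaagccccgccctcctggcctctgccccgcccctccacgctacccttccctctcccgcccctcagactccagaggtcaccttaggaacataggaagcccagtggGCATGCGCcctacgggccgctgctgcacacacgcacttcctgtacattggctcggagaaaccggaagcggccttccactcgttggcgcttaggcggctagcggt
Atp5d, chr10:80142025-80142324, plus strand: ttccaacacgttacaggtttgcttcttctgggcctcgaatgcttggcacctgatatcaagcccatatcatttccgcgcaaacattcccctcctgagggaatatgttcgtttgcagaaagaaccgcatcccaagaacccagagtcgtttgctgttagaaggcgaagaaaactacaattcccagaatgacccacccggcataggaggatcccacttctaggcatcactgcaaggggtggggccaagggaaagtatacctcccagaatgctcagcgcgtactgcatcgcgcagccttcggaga
In Uqcr11 the NRF1 core begins 4 bases before the start of the gene and the ETS motif 66 bases before it. In Ndufa8 the core begins 8 bases before the start, and in Sdhb 54 bases before it. Neither promoter listed for Atp5d holds any of the 3 motifs, and the first of them is shown.

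Each sample was measured on 1 Affymetrix whole-transcript array, and levels are log2 signals, so that a difference of 1 is a doubling. Signals of different genes are not comparable on an array, and only samples are compared. In bulk RNA, fewer cells of a type and less RNA per cell cannot be told apart. The array of young replicate 3 stood apart: its mean correlation with the other arrays was 0.969, against 0.976 to 0.981 for the rest, and its interquartile range of 2.69 was the lowest, against 2.79 to 2.87. Smooth muscle markers were present, with Acta2 between 11.4 and 12.8, but their summed log2 level over 9 genes ran from 69.2 to 79.7 in young and from 74.6 to 76.6 in old samples, with young replicate 3 the lowest. Of 7 macrophage and leukocyte genes Cd68 alone was highest in young replicate 3, at 10.3 against 7.63 to 8.43 in the others, and the summed level of the other 6 ran from 30.1 to 31.1 in young and from 30.3 to 31.5 in old samples, with young replicate 3 at 30.4. Of the 9 smooth muscle genes 1 was higher in old cells by more than 1 at an unadjusted p under 0.05 (limma). The sums of 7 epithelial and mesothelial genes did not overlap, at 39.4 to 40.0 in young and 40.2 to 42.5 in old samples. Of these 7 genes 6 had a higher mean in old cells, 2 at p under 0.05. Fibroblast and endothelial sums overlapped, with 1 gene higher and 1 lower, and with 0 higher and 2 lower. The part of these markers in the chain values was not tested. The label male was checked with the sex chromosome genes. Eif2s3y, on the Y chromosome, was present in all samples (8.07 to 9.11) and lowest in old replicate 3. Xist, which silences the second X chromosome of females, was at 3.49, 3.56 and 3.92 in young samples and at 6.32, 7.81 and 9.80 in old samples. The old samples thus go against a purely male label, and most strongly old replicate 3. Xist was higher in every old sample than in any young sample, so sex and age cannot be told apart in the differences. Leaving out old replicate 3 does not change that. Counts and medians are also given without old replicate 3 or without young replicate 3 where they move. The same holds for single genes that the results turn on. The 3 X-linked chain genes, Ndufa1, Ndufb11 and Cox7b, differed by 0.03, 0.04 and -0.10 (log2, old minus young). The other, dimmer probe set of Cox7b differed by 0.01, and whether either reads a processed copy of the gene was not checked.

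The question put to the chain was whether its transcripts change level as mice age. No chain gene differed past the study's threshold, a difference over 1 on the log2 scale with an unadjusted p under 0.05, which 1.00% of all genes passed. None had an adjusted p under 0.05 either (limma, Benjamini-Hochberg over all genes, 0.0451% of all genes), and the lowest adjusted p was 0.340, for Atp5d. Without this adjustment 7 chain genes were higher in old cells at p under 0.05, which is 7.78% against 6.71% of all genes, and 1 was lower (Cox8b, 1.11%), against 4.72% of all genes. Those higher were Atp5d and Atp5b of the ATP synthase, Ndufa8 and Ndufa9 of complex I, Uqcr11 of complex III and the assembly factor genes Ndufaf1 and Ndufaf7. The share of higher genes was thus near that of all genes, and the share of lower genes below it. The differences ran from -0.67 (Ndufa4l2) to 0.70 (Atp5d), with a median of 0.10 against 0.03 for all genes. In 63 of the 90 genes (70.0%) old was higher on average, as in 56.3% of all genes. Old and young samples did not overlap in 15 of the 90 genes with old higher, against 2467 of all 22180 genes (11.1%). They did not overlap in 4 of the 90 with old lower (Ndufb7, Cox7a1, Cox8b and Cox8c), against 1542 of all genes (6.95%).

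The 95% confidence intervals bound what these 6 arrays could miss. In 86 of the 90 genes the interval lay within 1 log2 unit of 0, and in 55 it lay within 0.5. Their median reach to either side was 0.32. The 4 genes whose intervals reached beyond 1 were Atp5d, Cox6b2, Ndufa4l2 and the pseudogene Atp5c1-ps. The plot of differences by complex shows most points within a narrow band slightly to the right of 0.

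**Figure D1:**
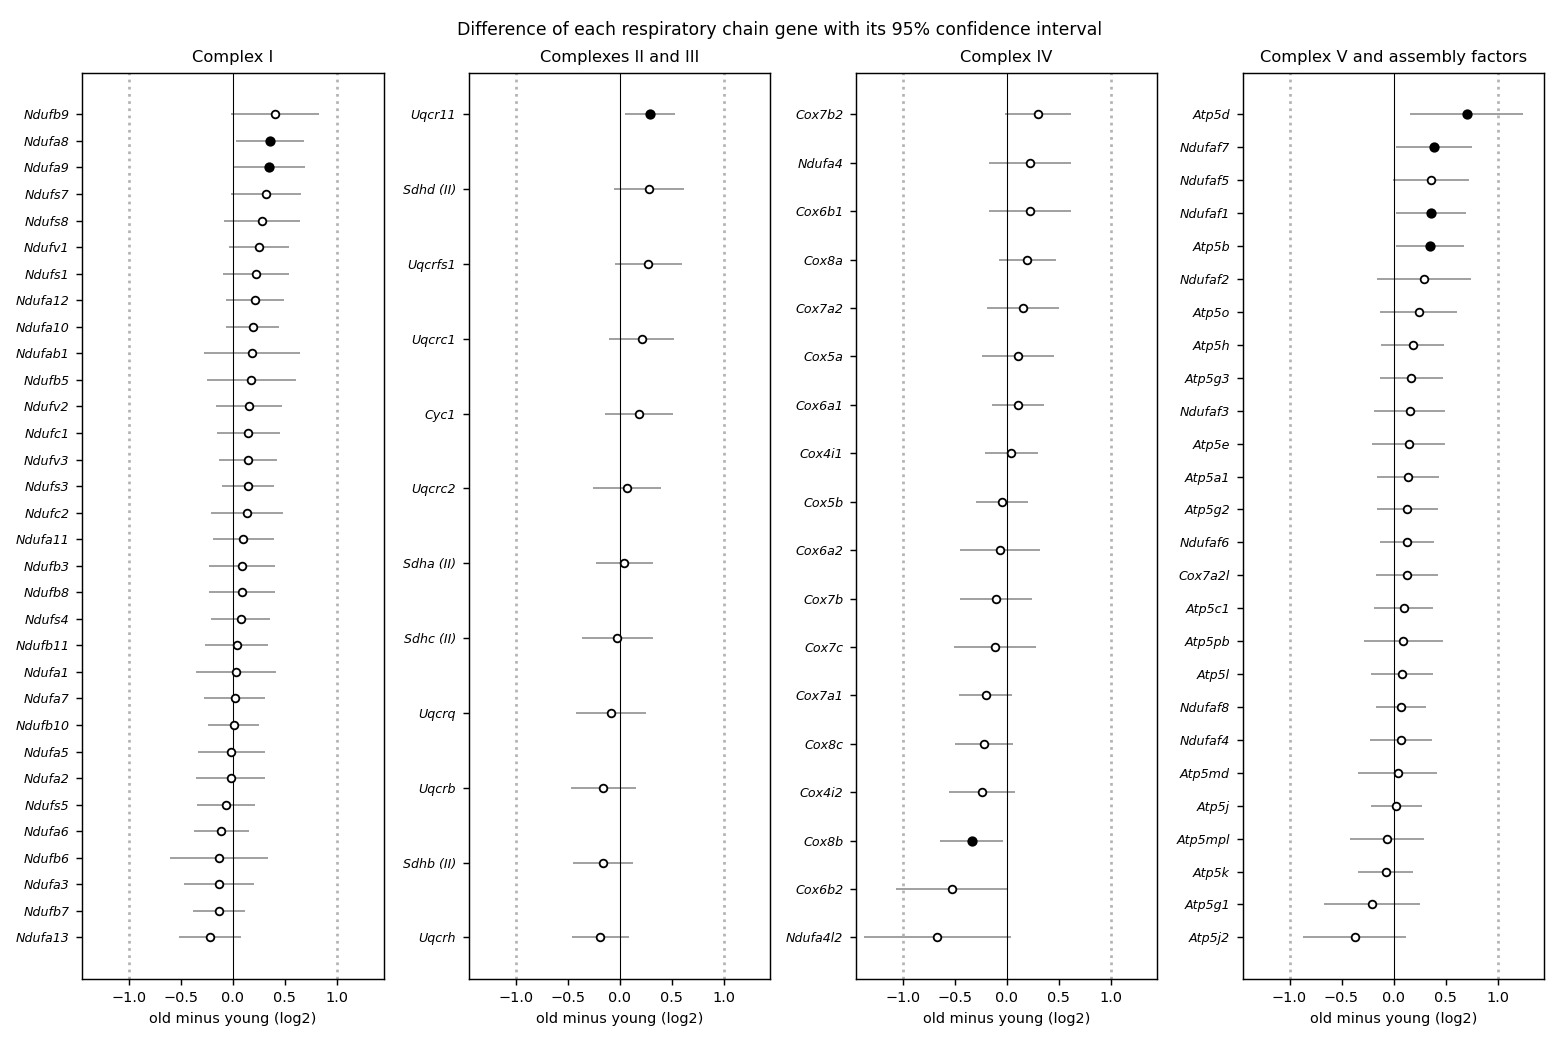
Difference in log2 signal, old minus young, of the 88 chain genes that are not pseudogenes, by complex, with points at the difference and lines for the 95% confidence interval from limma; filled points have an unadjusted p under 0.05. The points lie between -0.67 and 0.70, inside the dotted lines at 1 and -1.

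Young replicate 3 was the lowest of the 6 samples in 55 of the 90 genes (61.1%), against 27.9% of all genes. The shares were 51.1% and 33.9% with quantile normalization and 81.1% and 48.0% with centred arrays. Among genes above the median signal of the arrays (5.442), which 83 chain genes were, the shares were 63.9% and 38.9%. The median level over the chain genes was 7.98, 8.0 and 7.74 in the young samples and 8.09, 8.02 and 7.92 in the old samples. Young replicates 1 and 2 thus overlapped the old samples, and young replicate 3 lay below all others. Without it the median difference fell from 0.10 to 0.02, against 0.03 for all genes. In the same fit old was higher in 52 of 90 genes (57.8%), against 56.6% of all genes. There 1 gene remained higher (Uqcr11) and 1 was lower (Cox6b2) at p under 0.05. Without old replicate 3 the median was 0.13, with 3 genes higher (Atp5d, Ndufa8 and Uqcr11) and 0 lower, so that Atp5b, Ndufa9, Ndufaf1, Ndufaf7 and Cox8b were no longer at p under 0.05. Without old replicate 2 no gene was higher, and without young replicate 2 there were 13. Of all 22180 genes 1489 were higher at p under 0.05 with every sample. That count was 1116 without young replicate 3, 898 without old replicate 3, 892 without old replicate 2 and 2026 without young replicate 2. The part of the young replicate 3 array, of its lower smooth muscle markers and of its Cd68 level in these differences was not tested.

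**Figure D2:**
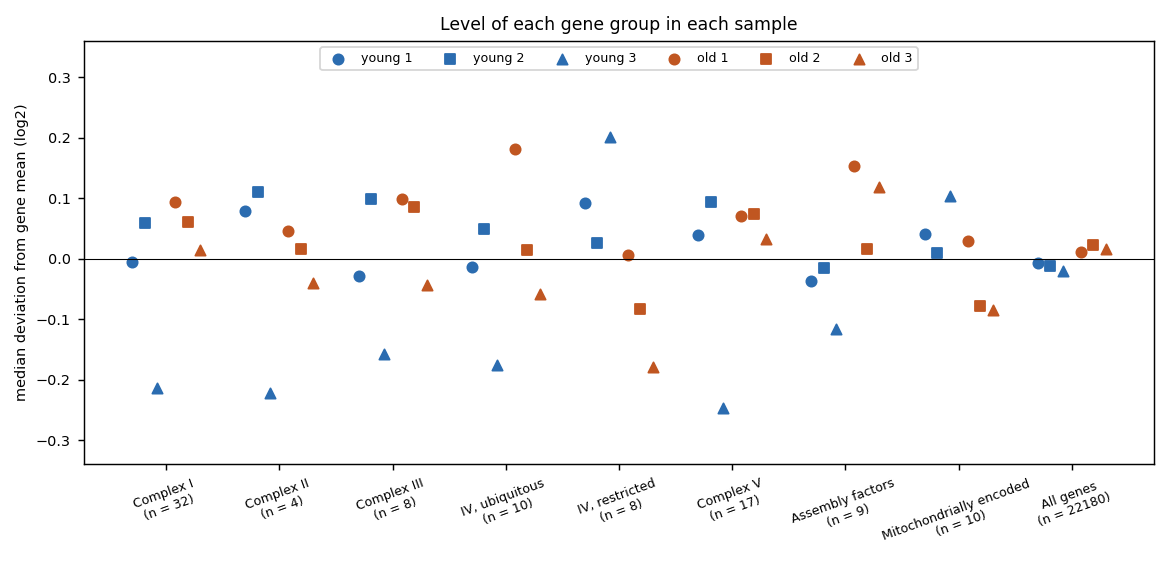
Median deviation of each gene group in each sample from the genes' own means over 6 samples (log2), with young samples in blue and old samples in orange. Young replicate 3 (blue triangle) lies lowest in complexes I, II, III and V, in the ubiquitous subunits of complex IV and in the assembly factors, and highest in the tissue-restricted subunits of complex IV and in the mitochondrially encoded subunits.

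Complex I, the largest of the chain, had a median difference of 0.12 over its 32 genes. Of these, 24 were above 0 (75.0%, against 56.3% of all genes) and 2 were higher at p under 0.05 (6.25%, against 6.71%). Without young replicate 3 the median was 0.01, with 18 above 0 (56.25%, against 56.6% of all genes) and 0 higher. The core subunits of complex I that are encoded in the nucleus carry the flavin and the iron-sulphur clusters that pass electrons from NADH to ubiquinone. All 6 nuclear core subunits measured here had a higher mean in old cells (median 0.24, and 0.17 without young replicate 3). None of them had a p under 0.05. Further core subunits are encoded in mitochondrial DNA. They are given below among 10 mitochondrially encoded chain subunits, of which only 1 had a higher mean in old cells. Ndufs7, which holds the last cluster before ubiquinone, was at 8.62, 8.83 and 8.63 in young samples and at 8.82, 8.97 and 9.26 in old samples, so that the groups just overlapped. The difference was 0.32 ± 0.15 (SE, unadjusted p = 0.0591, adjusted p = 0.454), or 0.20 without old replicate 3. Ndufv1, which binds NADH and the flavin, was at 8.24, 8.27 and 7.98 in young and at 8.39, 8.36 and 8.50 in old samples, a difference of 0.25 (unadjusted p = 0.0768). Its groups did not overlap, nor did those of Ndufs1, the largest core subunit (0.22), and of Ndufs3 (0.15). Ndufs8 and Ndufv2, both of which hold iron-sulphur clusters, differed by 0.28 and 0.16, with overlapping groups.

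The 26 accessory subunits surround this core and stabilise it. Their median difference was 0.08, with 18 above 0 (69.2%, against 56.3% of all genes). Without young replicate 3 it was -0.02, with 12 above 0 (46.2%, against 56.6%). Ndufa8, a cysteine-rich subunit on the intermembrane face, was at 9.47, 9.77 and 9.38 in young samples and at 9.85, 10.05 and 9.79 in old samples. All 3 old samples were above all young samples, by a narrow margin over young replicate 2, and the difference was 0.36 ± 0.14 (SE), 1.28 times (unadjusted p = 0.0364, adjusted p = 0.408). The other probe set of Ndufa8, which is dimmer, differed by 0.33. Ndufa9, which sits near the site of ubiquinone reduction, was at 8.61, 8.98 and 8.51 in young and at 8.99, 9.15 and 9.02 in old samples, a difference of 0.35 ± 0.15 (unadjusted p = 0.0434, adjusted p = 0.425). In both genes young replicate 2 lay close to the old samples, and without young replicate 3 the differences were 0.28 (unadjusted p = 0.102) and 0.26 (unadjusted p = 0.125). Ndufb9, of the membrane arm, had the largest difference in complex I at 0.40 (unadjusted p = 0.0597), and young replicate 3 at 9.89 was far below the other 5 samples, which lay between 10.45 and 10.80. Without that sample its difference was 0.20. At the other end Ndufa13 differed by -0.22 and Ndufb7 by -0.14, the latter with groups that did not overlap (unadjusted p = 0.249).

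Complex II oxidises succinate and also belongs to the tricarboxylic acid cycle. None of its 4 genes had a p under 0.05, and their median difference of 0.01 turned to -0.10 without young replicate 3 and to -0.04 with quantile normalization. The flavoprotein Sdha was at 9.97 ± 0.14 in young and at 10.01 ± 0.04 in old cells (SD, n = 3), and its interval ran from -0.23 to 0.32. The iron-sulphur protein Sdhb was at 7.69, 7.77 and 7.49 in young samples and at 7.60, 7.49 and 7.37 in old samples, which overlap, with a difference of -0.16 (unadjusted p = 0.243). The membrane anchors differed by -0.02 (Sdhc) and 0.28 (Sdhd, unadjusted p = 0.0879). The signs of Sdha and Sdhc turn under another scaling of the arrays, to -0.01 and 0.05.

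Complex III passes electrons from ubiquinol to cytochrome c. Its 8 genes had a median difference of 0.13, with 5 above 0 (62.5%, against 56.3% of all genes). The median was -0.0019 without young replicate 3. Uqcr11, a small subunit outside the catalytic core, was at 6.89, 6.84 and 6.84 in young samples and at 7.19, 7.17 and 7.10 in old samples. The spread within each group was the smallest among the genes with a p under 0.05, and the groups were clearly apart. The difference was 0.29 ± 0.10 (SE), 1.23 times (unadjusted p = 0.0229, adjusted p = 0.357), and it lay between 0.27 and 0.32 whichever sample was left out. It passed p under 0.05 in 4 of those 6 fits, including that without young replicate 3 (unadjusted p = 0.0376), where no other gene higher in old cells did. The redox subunits Uqcrfs1, the Rieske iron-sulphur protein, and Cyc1, cytochrome c1, differed by 0.28 (unadjusted p = 0.0817) and 0.19 (unadjusted p = 0.220). The core proteins Uqcrc1 and Uqcrc2 differed by 0.21 and 0.07, with p of 0.156 and 0.643. Uqcrb, Uqcrh and Uqcrq had lower means in old cells, by -0.08 to -0.18, with no p under 0.05.

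Complex IV, cytochrome c oxidase, has nuclear subunits that exist as a ubiquitous form and, for several, as a second form restricted to certain tissues. Over all 18 genes the median difference was -0.05, but it was 0.02 with arrays centred on their medians and 0.02 without old replicate 3. The 2 kinds of subunit had different values. The 10 ubiquitous ones had a median of 0.11, with 7 above 0 (70.0%, against 56.3% of all genes). The 8 tissue-restricted ones had a median of -0.23, with 1 above 0 (Cox7b2, 0.30). Of these, Cox7b2, Cox8b and Cox8c were dim, with means of 3.29, 4.26 and 3.63, below the median signal of the arrays (5.442). The difference between the 2 kinds was not tested. Without young replicate 3 the medians were 0.01 and -0.24, and with centred arrays 0.18 and -0.15. No ubiquitous subunit had a p under 0.05. Among them Cox4i1, Cox6a1, Cox6b1, Cox7a2 and Cox8a differed by 0.04, 0.11, 0.22, 0.16 and 0.20, and Ndufa4, first described as a complex I subunit, by 0.23.

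Ndufa4l2, a paralogue of Ndufa4 that hypoxia is known to induce, had the largest lower value of the chain. It was at 9.90, 8.58 and 9.53 in young samples and at 8.46, 8.66 and 8.90 in old samples. Young replicate 2 lay among the old samples, and the other young samples were above them. The difference was -0.67 ± 0.31 (SE), 0.630 times (unadjusted p = 0.0609, adjusted p = 0.455), and it was -1.04 without young replicate 2 (unadjusted p = 0.00073), the only fit in which a chain gene passed the study's threshold, but -0.39 without young replicate 1 (unadjusted p = 0.211). Cox6b2, known from testis, was at 7.66, 7.55 and 7.18 in young samples and at 7.40, 6.90 and 6.51 in old samples. The groups overlapped only through old replicate 1 and young replicate 3, and the difference was -0.53 ± 0.23 (unadjusted p = 0.0517, adjusted p = 0.442). With 1 sample left out it ran from -0.32 without old replicate 3 (unadjusted p = 0.178) to -0.76 without old replicate 1 (unadjusted p = 0.0062). Cox4i2, an isoform of lung and of oxygen-sensing cells, was at 6.39 ± 0.04 in young and at 6.16 ± 0.23 in old cells (SD), with old replicate 3 the lowest at 5.91 (difference -0.24, unadjusted p = 0.127, or -0.11 without that sample).

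Of the heart and skeletal muscle forms, Cox8b was dim, whereas Cox7a1 and Cox6a2, with means of 5.71 and 5.86, lay just above the median signal of the arrays. Cox8b was at 4.37, 4.31 and 4.60 in young samples and at 4.06, 4.24 and 3.97 in old samples, all below that median. It was the only chain gene lower at p under 0.05, with a difference of -0.34 ± 0.13 (SE, unadjusted p = 0.0328, adjusted p = 0.398), and its p was over 0.05 with arrays centred or rescaled to equal quantiles and without young replicate 3 (0.0893) or old replicate 3 (0.105). Cox7a1 differed by -0.20 (unadjusted p = 0.101), with old samples between 5.59 and 5.63 and young samples between 5.73 and 5.92. Cox6a2 differed by -0.06, which turned to 0.01 with centred arrays. The testis form Cox8c, also dim, differed by -0.21 (unadjusted p = 0.116). Cox7a1 and Cox8b are also expressed in brown fat. Of 6 adipocyte genes only 1 had a higher mean in old cells, and their median difference was -0.14. Fabp4 was lower at p under 0.05 (limma), by -1.13. Ucp1 and Cidea, which define brown fat, were at 4.73 or less in every sample. The summed log2 level of the 6 adipocyte genes ran from 33.6 to 34.6 in young and from 32.3 to 32.8 in old samples, without overlap. Without Fabp4, the gene with the largest difference, it ran from 23.18 to 23.58 in young and from 22.46 to 23.22 in old samples. These sums overlap only just. None of 7 striated muscle genes had a p under 0.05, and their sums overlapped at 38.4 to 39.3 and 38.2 to 39.2. The part of Fabp4 or other adipocyte transcripts in the complex IV values was not tested.

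Complex V had a median difference of 0.10 over its 17 genes, with 13 above 0 (76.5%, against 56.3% of all genes). Without young replicate 3 the median was 0.02, with 10 above 0 (58.8%, against 56.6% of all genes). Atp5d, the delta subunit of the central stalk that turns within the catalytic head, had the largest difference of the chain. It was at 7.90, 8.52 and 7.52 in young samples and at 8.56, 8.82 and 8.66 in old samples. All old samples were above all young samples, but young replicate 2 lay only just below old replicate 1, and the young samples were far more spread than the old (SD 0.51 against 0.13). The difference was 0.70 ± 0.24 (SE), 1.63 times (unadjusted p = 0.0174, adjusted p = 0.340). A further probe set of Atp5d went the same way, with a difference of 0.44. Without young replicate 3 the difference was 0.47 (unadjusted p = 0.0504), and without young replicate 2 it was 0.97. Atp5b, the catalytic beta subunit, was at 11.12, 11.44 and 10.97 in young samples and at 11.47, 11.53 and 11.57 in old samples. Old replicate 1 was barely above young replicate 2, and the difference was 0.35 ± 0.14 (SE), 1.27 times (unadjusted p = 0.0406, adjusted p = 0.420), or 0.24 without young replicate 3 (unadjusted p = 0.116). Its partner Atp5a1, the alpha subunit, differed by 0.14 and the gamma subunit Atp5c1 by 0.10. The 3 genes for the same c-ring protein did not share a direction, with 0.17 for Atp5g3, 0.13 for Atp5g2 and -0.21 for Atp5g1. Atp5j2, the f subunit in the membrane, had the lowest value at -0.37 (unadjusted p = 0.124).

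**Figure D3:**
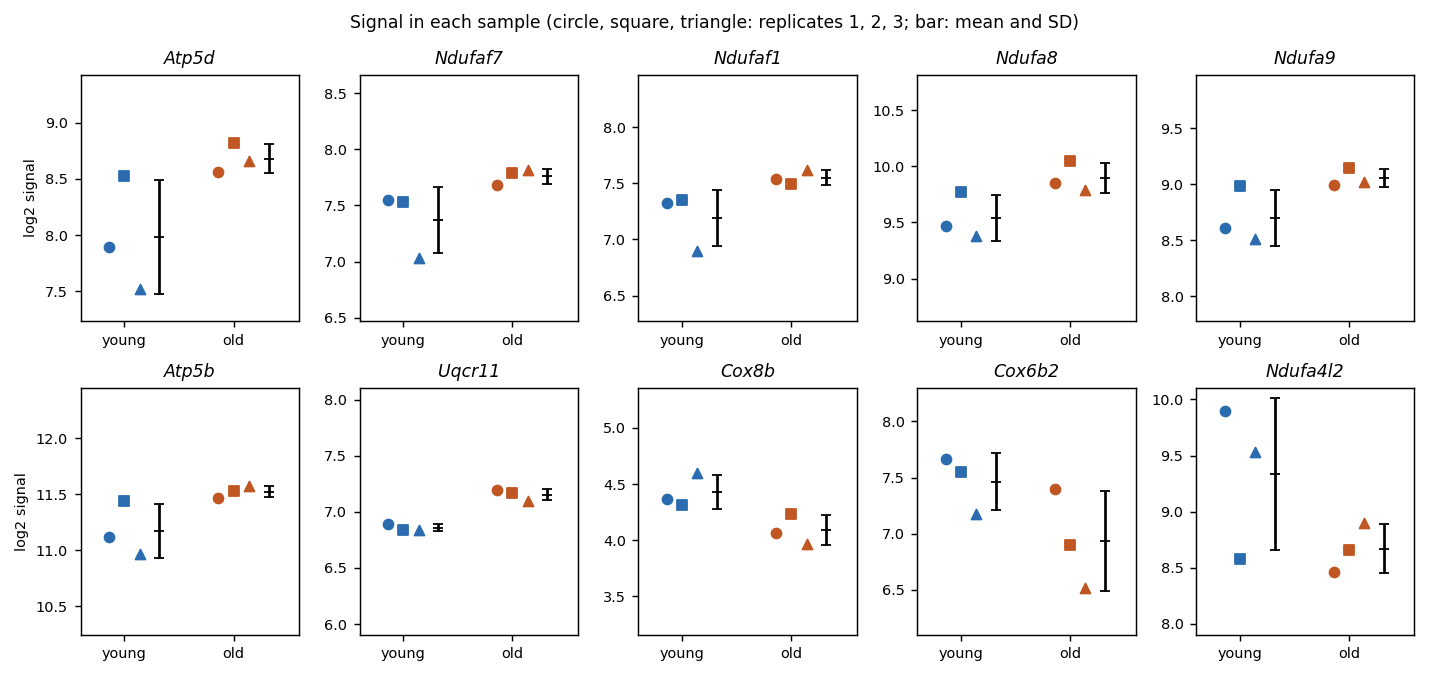
Log2 signal in each sample of the 8 chain genes with an unadjusted p under 0.05 and of Cox6b2 and Ndufa4l2; symbols stand for replicates 1, 2 and 3 and bars for the mean and SD of each group. Young replicate 2 (blue square) lies close to the old samples in Atp5d, Atp5b, Ndufa8 and Ndufa9, whereas the groups of Uqcr11 are apart.

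The 9 factors that build complexes all had higher means in old cells, as did 56.3% of all genes. Their median difference was 0.15, which was 0.17 without young replicate 3, 0.15 without old replicate 3 and 0.23 with centred arrays. All 9 also stayed above 0 in each fit with 1 sample left out, except that Ndufaf4 turned to -0.03 without old replicate 1. Only 2 had a p under 0.05 (22.2%, against 6.71% of all genes), and neither did without either of those samples. Ndufaf7, a methyltransferase that acts on a core subunit of complex I, was at 7.55, 7.53 and 7.04 in young samples and at 7.69, 7.79 and 7.81 in old samples. The difference was 0.39 ± 0.16 (SE, unadjusted p = 0.0392, adjusted p = 0.417), or 0.22 without young replicate 3. Ndufaf1, which acts in assembly of the membrane arm, was at 7.32, 7.35 and 6.90 in young samples and at 7.54, 7.49 and 7.62 in old samples, a difference of 0.36 ± 0.15 (unadjusted p = 0.0396, adjusted p = 0.417). In both genes young replicates 1 and 2 were nearly equal and just below the old samples, and young replicate 3 was well below. Cox7a2l, which joins complexes into supercomplexes, differed by 0.13 (unadjusted p = 0.345). Of the 2 pseudogenes, Atp5c1-ps differed by 0.56 at a very dim signal (unadjusted p = 0.147) and Uqcrh-ps1 by 0.08.

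Of the 12 chain genes with the NRF1 core in a listed promoter, 9 had a higher mean in old cells, with a median difference of 0.10, which equals that of all 90 genes. The 5 with the ETS motif had a median of 0.18 and the 2 with the receptor motif one of 0.23. The ETS median is the value of Atp5h, whose other, dimmer probe set differed by 0.006. The genes of the factors themselves did not differ at p under 0.05. Nrf1 was at 6.74 ± 0.04 in young and at 6.74 ± 0.16 in old cells (SD), and its difference of -0.01 turned to 0.07 with centred arrays. Gabpa, which carries the DNA binding part of GABP, differed by 0.23 (unadjusted p = 0.104) with groups that did not overlap, Esrra, an estrogen-related receptor, by -0.03, which turned to 0.05 with centred arrays, and the coactivator Ppargc1a, dim at 4.52 ± 0.15 and 4.56 ± 0.52, by 0.04, which turned to -0.03 with array weights.

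Mitochondrial genes around the chain were read as 6 lists. Over their 135 measured genes the median difference was 0.13, with 25 higher (18.5%) and 1 lower at p under 0.05, and none with an adjusted p under 0.05. Of all genes 6.71% were higher and 4.72% lower. The 25 were 16 without young replicate 3 and 17 without old replicate 3, and ran from 14 (without old replicate 2) to 35 (without young replicate 2). Over all genes the 1489 that were higher became 1116, 898, 892 and 2026 in the same fits. Among 20 regulators of mitochondrial DNA and biogenesis 3 were higher and 0 lower. Tfam, which packages mitochondrial DNA, was at 6.46, 6.64 and 6.30 in young samples and at 6.78, 7.02 and 6.95 in old samples, a difference of 0.45 ± 0.13 (SE, unadjusted p = 0.0095, adjusted p = 0.306). Tfb2m, which starts mitochondrial transcription, differed by 0.49 ± 0.11 (adjusted p = 0.217). Mterf1a, a termination factor, was dim at 4.01, 3.92 and 3.96 in young samples and 4.91, 4.59 and 5.40 in old samples. It differed by 1.00 ± 0.20 (unadjusted p = 0.00083, adjusted p = 0.152) and was the only gene of the 6 lists past the study's threshold. It fell below that threshold without old replicate 3 (0.79) and without young replicate 2 (0.98). All 3 genes kept a p under 0.05 in each fit without 1 sample.

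Among 35 assembly factors outside the naming rule 4 were higher and 0 lower (median 0.12), led by Cox15, which makes the haem of complex IV (0.72 ± 0.22, adjusted p = 0.308), Lrpprc, which stabilises mitochondrial transcripts (0.44), and the complex I factor Tmem186 (0.43). The tricarboxylic acid cycle and pyruvate dehydrogenase had the largest share, with 9 of 23 genes higher (39.1%), 0 lower and a median of 0.25, or 0.16 without young replicate 3, against 6.71% higher and a median of 0.03 over all genes. Citrate synthase, Cs, was at 10.12, 10.66 and 9.86 in young samples and at 10.72, 10.95 and 10.85 in old samples, a difference of 0.63 ± 0.20 (SE, adjusted p = 0.322). The succinyl-CoA synthetase genes Suclg2 and Sucla2 differed by 0.46 and 0.37, with adjusted p of 0.285 and 0.337. Without old replicate 2 the count of 9 was 3, and without young replicate 3 or old replicate 3 it was 4. Young replicate 3 was the lowest sample in 16 of the 23 genes. Of 26 genes for electron carriers, ubiquinone synthesis and nucleotide transport 5 were higher and 0 lower (median 0.09), among them Coq10a, a ubiquinone-binding protein (0.51), Gpd2, the mitochondrial glycerol phosphate dehydrogenase (0.56), and Sqrdl, which feeds electrons from sulphide to ubiquinone (0.55). Cycs, cytochrome c, differed by 0.29 (unadjusted p = 0.0948). Of 21 genes for import and membrane organisation 4 were higher and 0 lower (median 0.16), led by the import receptor Tomm20 (0.46) and by Immt (0.38) and Chchd3 (0.34), which shape the cristae.

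The chain subunits encoded in mitochondrial DNA had values of the other sign. Of 10 measured, 9 had a lower mean in old cells, with a median of -0.10, or -0.03 with centred arrays, under which 8 were lower. Only mt-Nd6, the complex I subunit encoded on the light strand, had a p under 0.05. It was at 11.09, 10.80 and 11.19 in young samples and at 10.80, 10.61 and 10.66 in old samples, a difference of -0.34 ± 0.14 (SE, unadjusted p = 0.0394, adjusted p = 0.417), and young replicate 2 and old replicate 1 were level. Its p was over 0.05 with centred arrays and in 4 of the 6 fits with 1 sample left out, among them those without young replicate 3 (unadjusted p = 0.108) and without old replicate 3 (unadjusted p = 0.0889). Young replicate 3, the lowest sample for most nuclear chain genes, was the highest for 8 of these 10. Whether nuclear and mitochondrial subunits differ from each other was not tested.

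**Figure D4:**
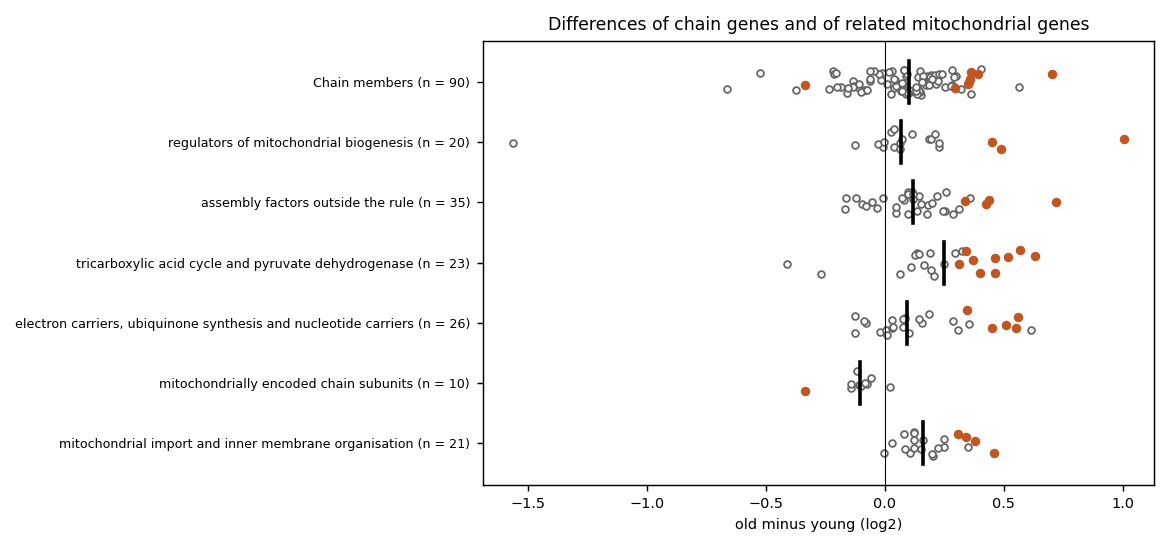
Differences in log2 signal, old minus young, of the 90 chain genes and of the 6 lists of related mitochondrial genes; each point is a gene, filled where its unadjusted p is under 0.05, and vertical bars are medians. The medians lie between -0.10 for the mitochondrially encoded subunits and 0.25 for the tricarboxylic acid cycle and pyruvate dehydrogenase, and the chain genes lie at 0.10.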

How the data were processed

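Biotin-labelled cDNA of 6 samples of cultured VSMCs was hybridised to 1 array per sample. The authors deposited log2 signals of each probe set. Their methods name RMA with background correction and quantile normalization, and the Transcriptome Analysis Console stands in the submitters' processing notes. The signals were not changed further. Array medians lay between 5.39 and 5.58. An array gives no read depth, and the number of arrays limits the precision. Of 41345 probe sets 23521 carried 1 symbol, 1820 several and 16004 none in the annotation used here. Each of the 22180 genes was read from its brightest probe set by the mean of 6 arrays, and 1082 genes had several. Of the chain genes 9 had several, and those of Cox5b, Cox7b and Ndufa11 differed in sign. Whether the brightest probe sets of these genes and of Atp5h read processed copies was not checked. A further 9 symbols that fit the naming rule, Ndufs6, Uqcr10 and Cox6c among them, occurred only on probe sets with several symbols and were left out.

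Differences are old minus young, from lmFit and eBayes of limma (3.58.1, run in R 4.3.3), the package that the study's methods name, with no covariate and with Benjamini-Hochberg adjustment over all genes. Errors are SE of a difference or SD of a group of 3. An exact permutation test of 3 against 3 samples reaches p = 0.1 at the least. The fit was tested on simulated data in which 200 genes were changed by more than any chain gene differed. That test cannot show how well differences of the size seen in the chain are found. Chain genes and lists were chosen with earlier results of these data known, and 189 of 200 list entries were measured. Genes were named if their unadjusted p was under 0.05 (up to 10 a direction, and up to 3 a list), if they are paired isoforms of complex IV, catalytic or cofactor-bearing subunits, Cycs or one of 5 regulators. Others were chosen after their values were seen (Ndufaf4, Ndufb9, Ndufa13, Ndufb7, Cox7b2, Atp5g1, Atp5g2, Atp5g3, Atp5j2, Uqcrb, Uqcrh, Uqcrq, the pseudogenes and the X-linked genes). The labels do not say whether replicate numbers pair the samples. Deviations of same-numbered samples from their group means correlated at 0.036, 0.019 and -0.015, which cannot settle whether they were handled in pairs.

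The fit was repeated after quantile normalization, after centring arrays on their medians, with a filter on dim genes, on the mean of a gene's probe sets, with trend and robust variance, with array weights, with a replicate block, for structural subunits only, and without each sample in turn.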

Additional observations from a re-analysis of the deposited data

How the results depend on the processing

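The count of chain genes past the study's threshold was 0 under every alternative except without young replicate 2, where it was 1 (Ndufa4l2, -1.04), so leaving out 1 sample gave 0 to 1. The count with an adjusted p under 0.05 was 0 throughout. The count higher at an unadjusted p under 0.05 was 7. With 1 sample left out it ran from 0 (without old replicate 2) to 13 (without young replicate 2), and these fits hold fewer samples. Over all genes it ran from 892 to 2026 in the same fits. The count lower was 1; it was 2 with array weights, 2 with trend and robust variance, 3 with the replicate block, and 0 with the filter on dim genes (which removes Cox8b), with centring and with quantile normalization, and it ran from 0 to 2 with 1 sample left out. With the replicate block 5 genes were higher, 4 of the 8 genes remaining called, and whether the numbers of the block stand for pairs is not known. The complex III median of 0.13 ran from -0.0019 to 0.22 with 1 sample left out. Signs of values near 0 turned for Cox6a2 (0.011 with centring), Sdha (-0.0068 with quantile normalization), Sdhc (0.053 with centring), Ppargc1a (-0.026 with array weights), Nrf1 (0.025 with weights, 0.067 with centring, 0.030 with quantile normalization) and Esrra (0.048 with centring). With 1 sample left out the differences ran from -0.0073 to 0.076 for Cox4i1, -0.187 to 0.079 for Cox6a2, -0.037 to 0.096 for Sdha, -0.159 to 0.095 for Sdhc, -0.062 to 0.178 for Uqcrc2, -0.254 to 0.249 for Ppargc1a, -0.074 to 0.081 for Nrf1 and -0.101 to 0.033 for Esrra. The cause was not tested. Over all genes 1489 were higher and 1047 lower at p under 0.05, against 2075 and 666 with centring and 1886 and 920 with quantile normalization, and the median difference moved from 0.03 to 0.11 and 0.07. The count of all genes with an adjusted p under 0.05 was 10, against 76 with array weights, 28 with the replicate block, 22 with trend and robust variance and 0 to 8 with 1 sample left out. With 3 arrays a group the intervals of the chain genes have a median reach to either side of 0.32. Smaller differences could be missed in many genes, although Uqcr11 had an unadjusted p under 0.05 (limma) at 0.29.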

Other observations

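Polg2, the accessory subunit of the mitochondrial DNA polymerase, had the largest difference of the related genes, and it was chosen after its values were seen. It was at 6.14, 6.89 and 9.53 in young samples and at 5.91, 6.13 and 5.84 in old samples, so that the difference of -1.56 (unadjusted p = 0.0644, limma) rested mainly on young replicate 3, without which it was -0.56 (unadjusted p = 0.0440). In the pyruvate dehydrogenase list the kinase genes Pdk3 and Pdk4, which shut the enzyme off, were the only genes with a lower mean in old cells, with differences of -0.27 (unadjusted p = 0.0854) and -0.41 (unadjusted p = 0.194), also chosen after their values were seen. The other kinase genes of that list, Pdk1 and Pdk2, had higher means, by 0.14 (unadjusted p = 0.404) and 0.20 (unadjusted p = 0.220).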
